A study of Mus musculus with 4 samples.

Results

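The 8 troponin genes of skeletal and heart muscle were examined in C2C12 cells that differentiated with or without an inhibitor of the histone demethylase LSD1. They were Tnnc1, Tnnc2, Tnni1, Tnni2, Tnni3, Tnnt1, Tnnt2 and Tnnt3, taken by symbol among the 18193 genes that had a probe set with a single symbol on the array. A probe set is a group of short probes against 1 transcript region, and the 8 genes had 12 of the 45101 probe sets. For each gene the probe set with the highest mean signal over the arrays was used as the main one.

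C2C12 is an established mouse myoblast line that forms myotubes when serum is lowered. Cells grown in 10% fetal bovine serum were moved to 2% horse serum, both with 25 mM glucose, and RNA was collected after 48 h with tranylcypromine (TC, 1 array), S2101 (1 array) or vehicle (2 arrays). Neither compound has a stated dose, so their values are set side by side and no comparison at matched dose is made. Whether each array stands for its own culture is not stated, so the spread behind each p-value may be technical. When TC and S2101 are taken as 1 group, that spread includes the gap between the compounds, which are not replicates of each other. When each compound is taken alone, a gene's own spread comes from the 2 vehicle arrays. The cells come from a single immortal line, which limits them as a model of muscle fibres.

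Troponin sits on the thin filament of striated muscle and makes contraction depend on calcium. Troponin C binds calcium, troponin I holds back the actomyosin interaction, and troponin T ties the complex to tropomyosin. Each subunit comes in isoforms from separate genes. Tnnt1 and Tnni1 encode the slow skeletal forms of T and I, and Tnnt3 and Tnni2 the fast skeletal forms. Tnnc1 encodes the troponin C shared by slow skeletal and heart muscle, and Tnnc2 that of fast skeletal muscle. Tnnt2 and Tnni3 encode the cardiac forms of T and I. Cardiac troponin T is also made in embryonic skeletal muscle and in young myotubes.

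The promoters of Tnnt1, Tnnt2 and Tnni3 are shown because these genes mark the range of values described here. Tnnt1 was higher on both inhibitor arrays, Tnnt2 overlapped between the groups, and Tnni3, with no protein-coding gene between it and Tnnt1 on chromosome 7, was under the filter on dim genes. Each sequence holds the 250 bases before a RefSeq transcription start on the GRCm38.p6 build, on the strand of the gene. The windows are chr7:4515976-4516225 on the minus strand for Tnnt1, chr1:135836084-135836333 on the plus strand for the first of 2 Tnnt2 starts, and chr7:4522529-4522778 on the minus strand for Tnni3. Capitals mark E-boxes (CANNTG), MCAT cores (CATTCC or its reverse complement GGAATG) and TATA elements (TATAAA or TTTATA).
Tnnt1: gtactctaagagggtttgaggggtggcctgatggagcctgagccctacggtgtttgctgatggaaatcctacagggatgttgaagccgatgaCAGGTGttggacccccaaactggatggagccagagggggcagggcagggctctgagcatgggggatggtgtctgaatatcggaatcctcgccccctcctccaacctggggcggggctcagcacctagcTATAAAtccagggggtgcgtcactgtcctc
Tnnt2: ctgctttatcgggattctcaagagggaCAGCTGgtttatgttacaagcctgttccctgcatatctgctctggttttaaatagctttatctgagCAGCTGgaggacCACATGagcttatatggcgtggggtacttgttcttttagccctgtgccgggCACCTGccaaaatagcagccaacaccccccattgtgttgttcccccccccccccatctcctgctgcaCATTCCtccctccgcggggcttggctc
Tnni3: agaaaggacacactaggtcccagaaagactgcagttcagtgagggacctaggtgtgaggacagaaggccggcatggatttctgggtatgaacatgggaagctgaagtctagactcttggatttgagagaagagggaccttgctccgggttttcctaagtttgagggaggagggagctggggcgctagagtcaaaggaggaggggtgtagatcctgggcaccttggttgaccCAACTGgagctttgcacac

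The Tnnt1 window held 1 E-box and a TATA element that begins 30 bases before the start. The Tnnt2 window held 4 E-boxes and 1 MCAT core beginning 27 bases before the start, and the Tnni3 window held 1 E-box. E-boxes were in 66.2% of 32851 RefSeq promoter windows of this length, MCAT cores in 12.6% and TATA elements in 12.4%, counted on both strands. The MEF2 and CArG motifs, searched on both strands too, were in 2.92% and 1.47% of all windows and had 0 matches in the 8 windows found for 6 of the troponin genes. The searched motifs do not overlap one another in the printed windows. A match is a description of letters and not of a bound site.

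The measurements are MAS5 signals, a linear brightness per probe set with each array scaled to the same trimmed mean. Tests were made on log2(signal + 50) with limma over the 9097 genes whose mean signal reached that of the median gene, 178.8, and p-values were adjusted by Benjamini-Hochberg over all of them. Of the 8 troponin genes 7 passed this filter. Precision is limited by the number of arrays, 4 in all. Probes differ in brightness for the same amount of RNA, so no gene's level is ranked against another's, and a summed signal is weighted towards its brightest probe sets. Across the arrays the median signal was 63.4 to 75.1 and the highest 43229.5 to 46399, log2 signals correlated pairwise at r = 0.986 to 0.990 over all probe sets, and Gapdh signal at the 3′ end over that at the 5′ end was 0.743 to 0.790.

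The main comparison asked whether troponin transcripts differed between the inhibitor arrays (TC and S2101 as 1 group, n = 2) and the vehicle arrays (n = 2). Slow troponin T, Tnnt1, was higher by 0.26 on the log2 scale (95% interval 7.33% to 34.3% higher) on the inhibitor arrays. Its adjusted p of 0.0537 in limma did not pass the threshold of 0.05 over all genes. The other 6 tested troponins, slow, fast and cardiac, differed by -0.030 to 0.053 on the log2 scale, and none passed. The inhibitor arrays overlapped the vehicle arrays for each of these 6. The cardiac troponin I gene, Tnni3, was too dim to test.

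**Figure D1:**
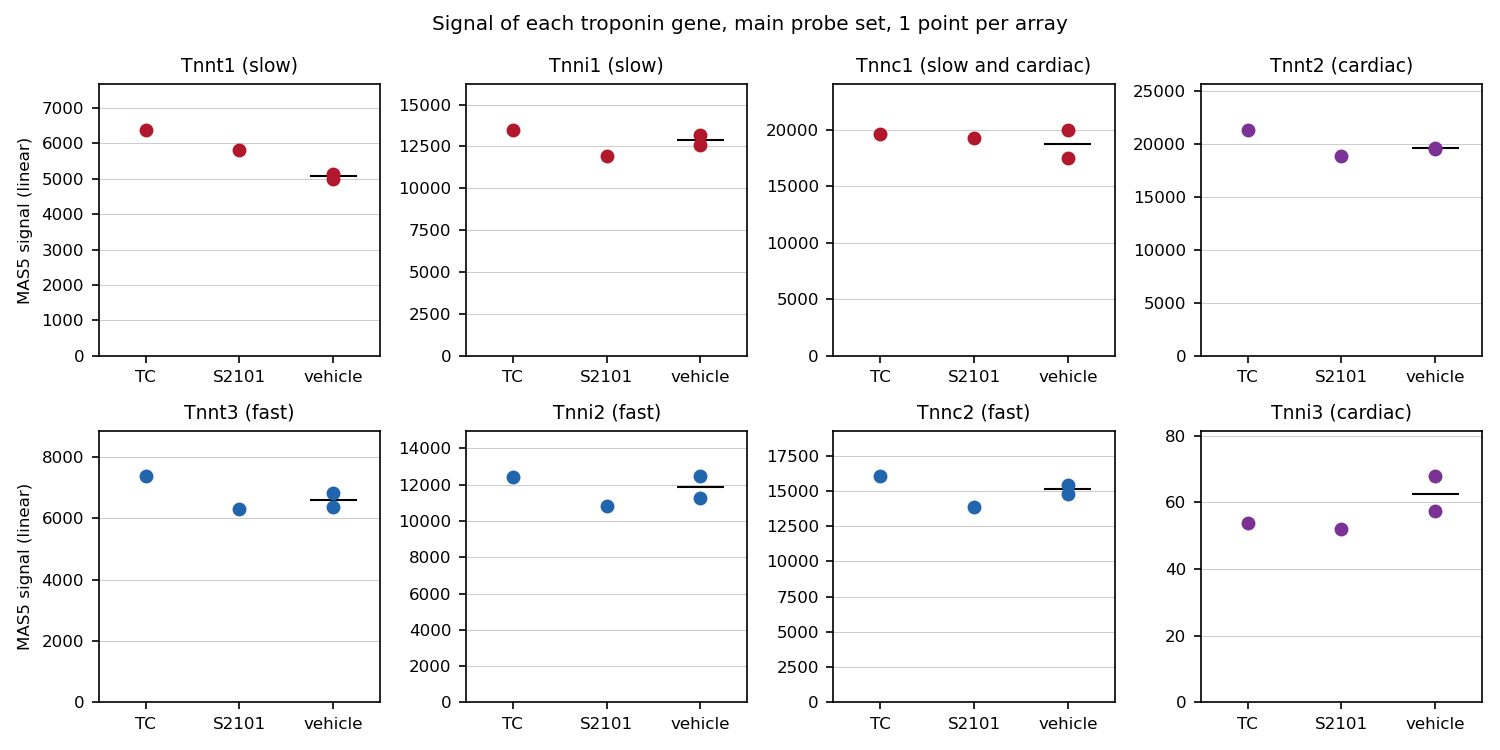
MAS5 signal (linear axis from 0) of the main probe set of each troponin gene, 1 point per array, with TC, S2101 and the vehicle pair from left to right and a bar at the vehicle mean. Tnnt1 is the panel among the bright genes in which both inhibitor arrays (6385 and 5819.9) lie above both vehicle arrays (5135 and 5005), and Tnni3 stays below 68 on every array.

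Troponin T, the subunit that anchors the complex to tropomyosin, held the only gene with separate groups among those tested. Tnnt1 (probe set 1419606_a_at) had signals of 6385 with TC and 5819.9 with S2101, against 5135 and 5005 on the vehicle arrays. Both inhibitor arrays were above both vehicle arrays, TC more so than S2101, and the vehicle arrays lay 0.036 apart on the log2 scale. The log2 difference of inhibitor arrays from vehicle was 0.26 ± 0.073 (SE; 95% interval 0.10 to 0.43; unadjusted p = 0.00455, adjusted p = 0.0537, limma). Separate groups are common in these data: 51.1% of all genes tested had inhibitor arrays that did not overlap the vehicle arrays, and 27.6% had both above. The adjusted p was 0.0382 with quantile normalization and 0.0226 without the S2101 array, and it was 0.157 without the TC array. Without vehicle 1 it was 0.162 and without vehicle 2 it was 0.258, at log2 differences of 0.28 and 0.25.

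Fast troponin T, Tnnt3 (1450118_a_at), had signals of 7366 with TC and 6312 with S2101, against 6379 and 6833 on the vehicle arrays. The TC array was the highest and the S2101 array the lowest of the 4, with the vehicle arrays between them. Its log2 difference was 0.046 ± 0.084 (95% interval -0.14 to 0.23; adjusted p = 0.807, limma). The 95% interval of Tnnt1, 0.10 to 0.43, overlapped this one. Such overlap is not a test between the genes, and their ratio within each array is given below.

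Cardiac troponin T, Tnnt2, was bright on every array. Its main probe set (1424967_x_at) gave 21380 with TC and 18866 with S2101, against 19681 and 19566 on the vehicle arrays. The vehicle arrays were nearly equal and lay between TC above and S2101 below. The log2 difference was 0.033 ± 0.072 (95% interval -0.13 to 0.19; adjusted p = 0.840, limma). A second bright probe set (1418726_a_at) gave 20650.3 with TC and 19510 with S2101, against 19204 and 19885 on the vehicle arrays, and a log2 difference of 0.039 when each probe set was fitted as its own feature. There TC was again the highest, while S2101 lay between the vehicle arrays. Another Tnnt2 probe set (1440424_at) was dim, with signals of 36.9 to 56.3. The suffix _x_at marks a probe set with probes that may also match other transcripts, and _a_at one that detects several transcripts of a gene, so splice forms of troponin T were not resolved.

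Troponin I, the inhibitory subunit, gave overlapping groups in both skeletal forms. Slow Tnni1 (1450813_a_at) had signals of 13500 with TC and 11914 with S2101, against 13192 and 12611 on the vehicle arrays. Fast Tnni2 (1416889_at) had 12440 with TC and 10844 with S2101, against 12467 and 11281 on the vehicle arrays. In both genes S2101 was the lowest array. TC was the highest for Tnni1, and lay between the vehicle arrays for Tnni2. The log2 differences were -0.024 ± 0.074 for Tnni1 (95% interval -0.19 to 0.14; adjusted p = 0.891, limma) and -0.030 ± 0.082 for Tnni2 (95% interval -0.21 to 0.15; 0.878). A second Tnni2 probe set (1438609_x_at) had 6574 with TC and 5662 with S2101, against 6343 and 6323 on the vehicle arrays, and another (1438608_at) was dim, with 33.2 to 92.8. S2101 was the lowest array in the second set too, where TC was the highest.

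Cardiac troponin I, Tnni3 (1422536_at), had signals of 53.8 with TC and 52.0 with S2101, against 67.8 and 57.5 on the vehicle arrays. Both inhibitor arrays were below both vehicle arrays at a signal near the offset of 50. This arrangement was found in 23.4% of all genes tested, which are brighter and do not include Tnni3. Fitted without the filter on dim genes, its log2 difference was -0.13 ± 0.20 (95% interval -0.60 to 0.34; adjusted p = 0.840, limma).

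Troponin C, the calcium sensor, gave overlapping groups in both forms. Tnnc1 (1418370_at), the slow and cardiac form, had signals of 19581 with TC and 19224 with S2101, against 17476 and 19996 on the vehicle arrays. Both inhibitor arrays lay between the vehicle arrays, which were 0.19 apart on the log2 scale, the widest vehicle gap among the 7 tested genes. Fast Tnnc2 (1417464_at) had 16032 with TC and 13823 with S2101, against 15394 and 14790 on the vehicle arrays. TC was the highest array and S2101 the lowest. The log2 differences were 0.053 ± 0.074 for Tnnc1 (95% interval -0.11 to 0.22; adjusted p = 0.732, limma) and -0.019 ± 0.078 for Tnnc2 (95% interval -0.19 to 0.15; 0.917).

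Read as a group, 0 of the 7 tested troponins passed in limma for the inhibitor arrays together, where 8.01% of all genes tested did (4.28% higher and 3.74% lower). At an unadjusted p under 0.05 the count was 1 of 7, against 22.3% of all genes. The median log2 difference of the 7 was 0.033, beside 0.014 over all genes tested, and the median size of the difference without sign was 0.033, beside 0.12. The pooled difference averages the compounds, so deviations in opposite directions offset each other. Taken per compound, the median size was 0.087 with TC, beside 0.14, and 0.11 with S2101, beside 0.13. Over the 4 arrays the median range of a troponin gene was 0.20 on the log2 scale, beside 0.26 for all genes tested. The values over all genes are not restricted to genes as bright as the troponins. Whether troponins differ in size or range from genes of like brightness was not tested. The 95% intervals of the 6 genes other than Tnnt1 ran from -0.21 at the lowest to 0.23 at the highest. Changes inside a gene's own interval were not excluded here.

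With TC, which has 1 array, Tnnt1 had a log2 difference of 0.33 ± 0.072 (95% interval 0.17 to 0.49; adjusted p = 0.0232, limma with 3 groups). The error rests on the 2 vehicle arrays and limma's prior, so no spread between TC arrays enters it. Of the 7 troponins it was the 1 past the threshold, where 8.18% of all genes tested passed (4.36% higher and 3.81% lower) and 23.6% had an unadjusted p under 0.05. On simulated data this fit with a lone array made false calls more often than its threshold allows. The call ended without the filter on dim genes (adjusted p = 0.177), with the variance trend left out (0.171) and with every probe set as its own feature (0.284). Without the dim-gene filter, limma called 12 of 18193 genes in all for TC. All 7 troponins had positive differences with TC, the others from 0.066 to 0.16, and each of those 6 intervals included 0. Over all 9097 genes tested, 4913 had a positive difference with TC.

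With S2101, Tnnt1 had a log2 difference of 0.20 ± 0.072 (95% interval 0.036 to 0.36; adjusted p = 0.154, limma with 3 groups). In this comparison 0 of 7 troponins passed and 1 had an unadjusted p under 0.05, where 6.71% of all genes tested passed (3.37% higher and 3.33% lower) and 20.8% had such a p. Tnnc1 stood at 0.040, and the other 5 were negative, from -0.13 for Tnni2, Tnnc2 close to it, to -0.057 for Tnnt2. Negative differences with S2101 were found in 4382 of the 9097 genes tested. With probe sets averaged Tnni2 stood at -0.28 with S2101 (95% interval -0.46 to -0.096; adjusted p = 0.0705, limma), its dim probe set being part of that average. The TC and S2101 comparisons share the vehicle arrays. Whether Tnnt1 differed between the compounds was not tested, since no dose is stated.

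**Figure D2:**
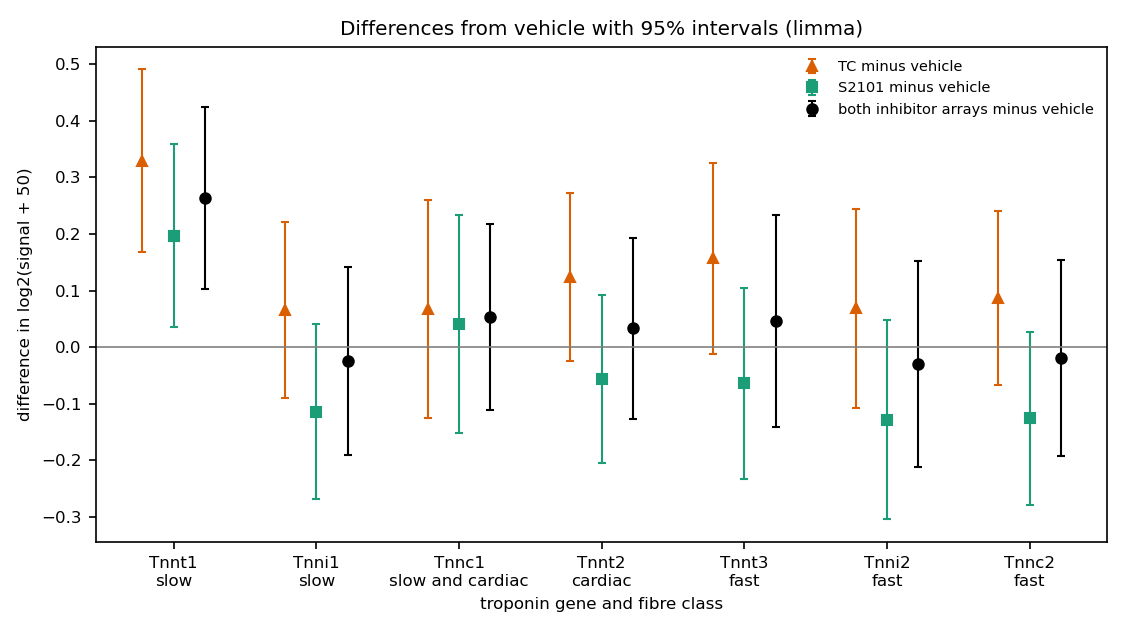
Differences in log2(signal + 50) from the vehicle arrays (y axis) for the 7 tested troponin genes, with TC (triangles), S2101 (squares) and both inhibitor arrays together (circles); bars are 95% limma intervals. The intervals of Tnnt1 lie above 0 in all 3 comparisons, and those of the other genes include 0.

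The isoform classes were next compared as ratios within an array, which are free of the scaling of that array. The slow over fast troponin T ratio, Tnnt1 over Tnnt3, stood 0.17 above the vehicle mean with TC and 0.26 above it with S2101 on the log2 scale, against 0.067 and -0.067 on the vehicle arrays. The inhibitor arrays lay above both vehicle arrays, with a difference of 0.22 (exact two-sided permutation p = 0.333, n = 2 against 2). This is the smallest p that 2 against 2 arrays can give, so the design cannot reach 0.05. The ratio of Tnnt1 to cardiac Tnnt2 behaved alike, at 0.21 with TC and 0.25 with S2101, against 0.014 and -0.014 on the vehicle arrays. Cardiac over fast troponin T, Tnnt2 over Tnnt3, overlapped between the groups, at -0.033 with TC and 0.0076 with S2101, against 0.053 and -0.053 on the vehicle arrays.

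For the other subunits the groups overlapped. Slow over fast troponin I, Tnni1 over Tnni2, was -0.0032 with TC and 0.014 with S2101, against -0.039 and 0.039 on the vehicle arrays, a difference of 0.0057 (exact permutation p = 1). Slow over fast troponin C, Tnnc1 over Tnnc2, was -0.020 with TC and 0.17 with S2101, against -0.13 and 0.13 on the vehicle arrays. Its difference of 0.073 (exact permutation p = 0.667) was smaller than the vehicle gap of 0.25. The troponin C difference changed sign without vehicle 1 (-0.053) or without the S2101 array (-0.020), and that of troponin I without vehicle 1 (-0.034) or without S2101 (-0.0032). For troponin T it stayed between 0.15 and 0.28 whichever array was left out. With groups that do not overlap, leaving out 1 array cannot change the sign, so this adds no separate support.

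**Figure D3:**
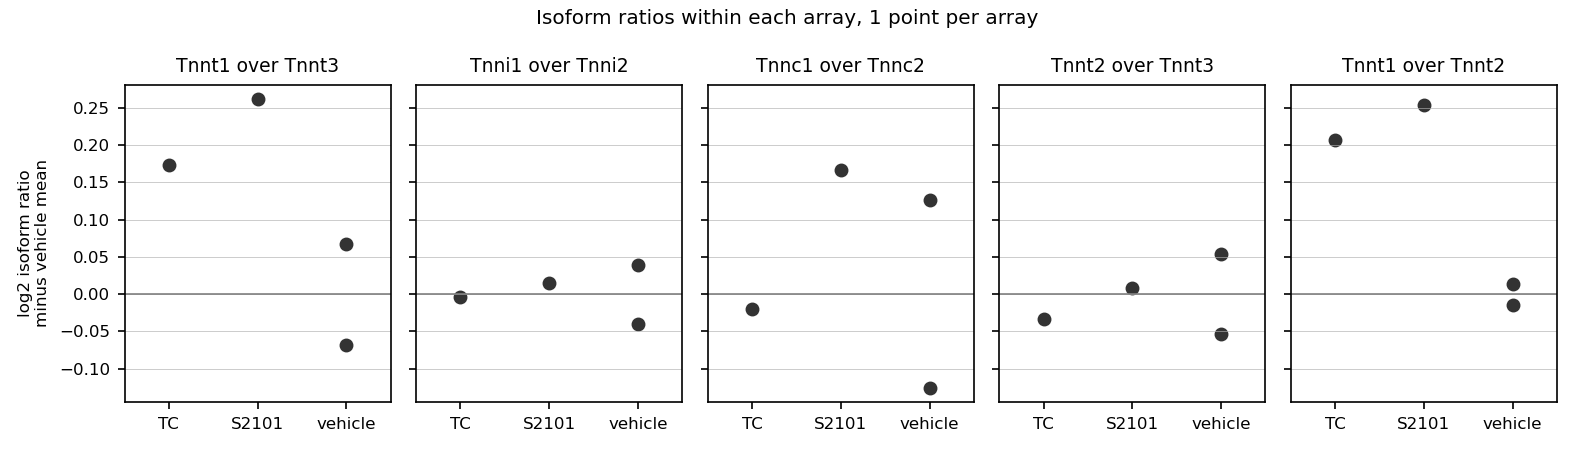
Log2 ratio of 2 troponin isoforms within each array, minus the mean of the vehicle arrays (y axis), 1 point per array. Both inhibitor points lie above both vehicle points where Tnnt1 is on top of the ratio, and overlap them in the other panels.

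By the distance between profiles, each gene's log2 values being centred on its own mean over the 4 arrays, the tested troponins lay at unequal distances. Fast Tnnc2 and slow Tnni1 were the nearest pair, at a root mean square distance of 0.012, although they belong to different fibre classes. Tnni2 was nearest to Tnni1 (0.029), and Tnnt2 to Tnnc2 (0.034), while Tnnc1 was 0.077 from its nearest member, Tnnt3. Tnnt1 was 0.117 from its nearest member, Tnnt2, and was the farthest member for 5 of the other 6 genes. Outside the family, the tested genes nearest to Tnnt1 over the 4 arrays were Apobec2 (0.0052), a gene known for its expression in striated muscle, Gpaa1 (0.0075), a subunit of the enzyme that attaches lipid anchors, and Zfyve9 (0.0085), an adaptor in TGF-beta signalling. Apobec2 had signals of 2383 with TC and 2180 with S2101, against 1900 and 1864 on the vehicle arrays, and did not pass (adjusted p = 0.0735, limma). Nearest to Tnnt3 were Tmem150a (0.0053), Mttp (0.0061), which encodes the lipid transfer protein of lipoprotein assembly, and Commd10 (0.0069). Each profile rests on 4 arrays only.

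The troponin I and T genes lie in pairs in the mouse genome. In the GRCm38.p6 annotation Lad1 is the 1 protein-coding gene between Tnni1 and Tnnt2 on chromosome 1, and Lsp1 the 1 between Tnni2 and Tnnt3 on chromosome 7. Both were named after their values were seen. Lad1 was under the filter, with 20.6 with TC and 58.2 with S2101, against 78.6 and 64.2 on the vehicle arrays. Lsp1, a leukocyte-associated actin-binding protein gene, had 1467 with TC and 1324 with S2101, against 1731 and 1685 on the vehicle arrays, and its difference of -0.28 on the log2 scale failed the test (adjusted p = 0.0778, limma).

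Among 16 other thin filament genes, 14 were tested. Of these 1 fell and 13 genes failed the test, around a median log2 difference of 0.037. Over all genes tested 8.01% passed in limma (4.28% higher and 3.74% lower). Tpm4, a tropomyosin found mainly outside striated sarcomeres, fell by 0.33 ± 0.085 (SE) in log2 units, at an adjusted p of 0.0441 in limma. It had signals of 14102 with TC and 12148 with S2101, against 15540 and 17337 on the vehicle arrays. The call ended without vehicle 2 (adjusted p = 0.231) or without S2101 (0.132). The tropomyosins that troponin T binds in sarcomeres, Tpm1 (-0.018), Tpm2 (-0.061) and Tpm3 (-0.11), were named after their values were seen and did not pass, nor did the skeletal actin Acta1 (0.053) and the cardiac actin Actc1 (-0.23), chosen in the same way.

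Other fibre type genes showed mixed directions. The counts of these lists stand beside the 8.01% of all genes tested that passed in limma (4.28% higher and 3.74% lower). Of 9 other slow fibre genes 6 were tested, with 1 higher, 2 lower and 3 that failed the test around a median of -0.064. Slow myosin Myh7 had 281 with TC and 295 with S2101, against 561 and 628 on the vehicle arrays, and fell by 0.93 on the log2 scale (adjusted p = 0.00165, limma), on the opposite side of 0 from Tnnt1. The Z-disc protein gene Csrp3 fell by 0.50 and the calcium pump gene Atp2a2 rose by 0.37, and both calls ended without vehicle 2 (adjusted p = 0.0645 and 0.0622, limma). Of 12 other fast fibre genes 7 were tested, and 1 rose while 6 failed the test, around a median of 0.10. The gene that rose was the fast Z-disc actinin Actn3 (0.34, adjusted p = 0.0141, limma), whose call ended without vehicle 1 (0.135). The developmental myosin genes Myl4 (-0.32, adjusted p = 0.0533, limma) and Myh3 (-0.16, 0.190) did not pass, and the other listed gene was under the filter. Myl4 passed with quantile normalization (adjusted p = 0.0267, limma), without vehicle 2 (0.0201) and without TC (0.0142), and its difference was -0.14 with probe sets averaged and -0.21 without S2101. Of 17 fibre type regulators, 13 were tested and Eya1, a transcriptional coactivator of fast fibre genes, rose (0.64, adjusted p = 0.0060, limma), while 12 failed the test and the list median was 0.16. With every probe set as its own feature the calls of Tpm4, Myh7, Csrp3, Atp2a2, Actn3 and Eya1 all ended, and all of them but Myh7 ended without the dim-gene filter.

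**Figure D4:**
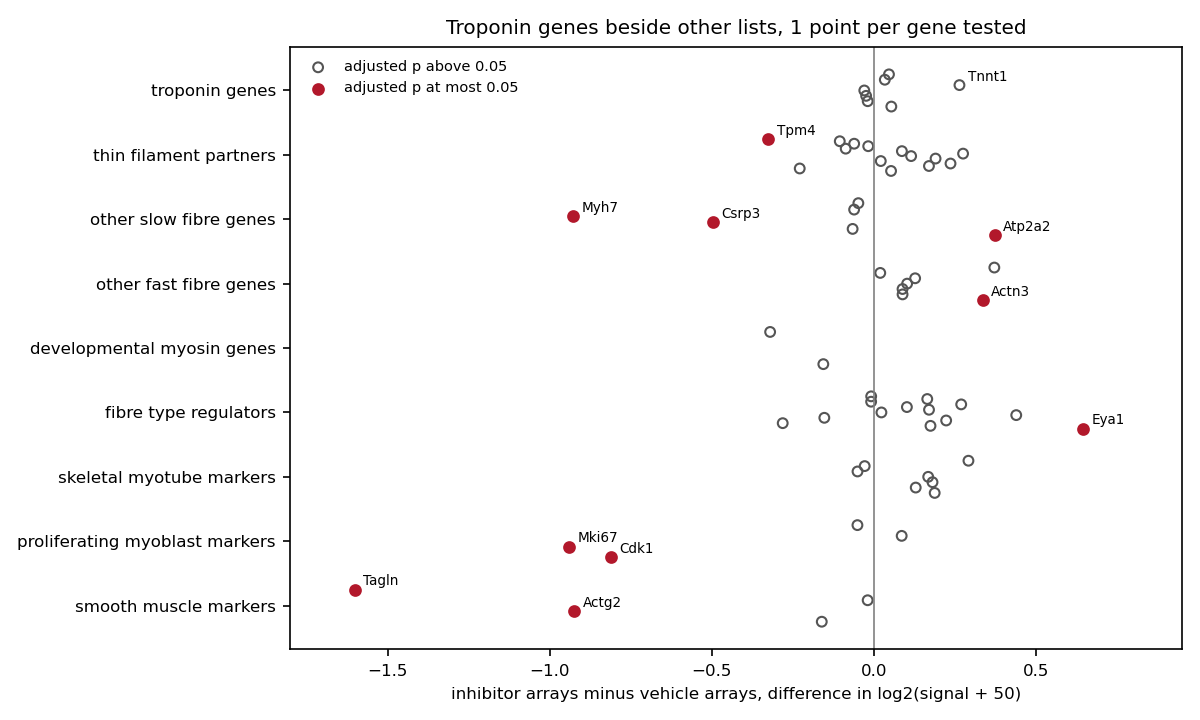
Difference in log2(signal + 50) between the inhibitor and the vehicle arrays (x axis) for the tested genes of each list, 1 point per gene, filled where the limma adjusted p is at most 0.05. The troponins lie between -0.030 and 0.26 with 0 filled points, beside Myh7 at -0.93 among the slow fibre genes and Actn3 at 0.34 among the fast ones.

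Markers of the cell state were measured beside these values. Their counts stand beside the 8.01% of all genes tested that passed in limma (4.28% higher and 3.74% lower). All 7 skeletal myotube markers were bright enough to test and 0 passed in limma (2 had an unadjusted p under 0.05), with a median log2 difference of 0.17, the largest being Ttn (0.29, adjusted p = 0.0544) and Chrna1 (0.19, 0.152). Of the 7, 5 had positive differences and 2 negative ones, the muscle transcription factor genes Myod1 (-0.051) and Myog (-0.029). Ttn passed with quantile normalization (adjusted p = 0.0402, limma), without vehicle 1 (0.0443) and without S2101 (0.0498), and its difference was 0.13 with probe sets averaged. The markers' summed signal was 50973 with TC and 46383 with S2101, against 45185 and 44099 on the vehicle arrays. This sum was higher on both inhibitor arrays, and Chrna1 and Myog hold most of it. Of 5 proliferating myoblast markers 4 were tested and 2 fell (Mki67, log2 difference -0.94, and Cdk1, -0.81), while Pax7 (-0.051) and Myf5 (0.085), the myoblast transcription factor genes among them, did not pass. The call of Cdk1 ended with every probe set as its own feature (adjusted p = 0.0589, limma). The list had summed signals of 6056 with TC and 6484 with S2101, against 7685 and 8153 on the vehicle arrays. Of 6 smooth muscle markers 4 were tested and 2 fell (Tagln, log2 difference -1.60, and Actg2, -0.92), while Acta2 (-0.16), which holds most of the summed signal, and Smtn (-0.020) did not pass, with sums of 30995 with TC and 29905 with S2101, against 37839 and 36271 on the vehicle arrays. Genes named here that did not pass, other than Ttn and Chrna1, were chosen after their values were seen. The part of these shifts in the Tnnt1 value was not tested, and in bulk RNA fewer cells of a kind and less RNA per cell cannot be told apart.

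Heart and fat markers were mostly under the filter. Of 9 cardiomyocyte markers 1 was tested, the natriuretic peptide gene Nppb (-0.27, adjusted p = 0.336, limma), and Myh6 and Nkx2-5 (both chosen after their values were seen) were at 1.13 to 15.4 and at 68.1 to 92.8. The summed signal of these 9 was 378 with TC and 521 with S2101, against 614 and 544 on the vehicle arrays. Of 5 adipocyte markers, 3 had a probe set and 0 reached the filter, with sums of 70.9 with TC and 149 with S2101, against 107 and 149 on the vehicle arrays.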

How the data were processed

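RNA of 4 samples of differentiating C2C12 was hybridised to Affymetrix arrays, with biotinylated cRNA made from 250 ng of RNA per the labels' protocols. The deposited values are MAS5 signal intensities, and MAS5 and Affymetrix Expression Console are named in the submitters' processing notes. Their versions and background settings, and detection calls, were not given in the sources used here. On each array the trimmed mean (2% off each end) of the deposited intensities was 500.0, so 1 factor scales all probe sets of an array.

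Of 45101 probe sets, 34945 carried a single symbol in the platform annotation, and 34741 of these matched the RefSeq gene table (GRCm38.p6). Signals were turned into log2(signal + 50), which understates changes of dim genes. Genes with a mean signal at or above the median gene were fitted by lmFit and eBayes of limma 3.58.1 (R 4.3.3; trended variance, Benjamini-Hochberg 0.05): 2 inhibitor against 2 vehicle arrays (2 residual degrees of freedom, prior 8.08), and 3 groups (1 residual degree of freedom, prior 8.37). Both fits were tested on simulated data with known changes. The false share of calls was near the threshold with 2 arrays a group, and well above it for the lone TC array. Calls for a single compound are therefore less certain. The simulation gave TC and S2101 the same change and a spread unrelated to brightness, so its error rates may not carry over to these data.

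The troponin genes and all gene lists were chosen with earlier results of these data known. Named list genes were those past the test, at most 4 a list, or else the 2 largest differences. For pattern likeness the slow and the fast troponin gene with the largest difference each got their 3 nearest genes. Exceptions are stated. Alternatives were 2 other offsets, 2 other filters, no trend, averaged probe sets, quantile normalization, single probe sets and leaving out each array.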

Additional observations from a re-analysis of the deposited data

Results flagged for a closer look

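TC lay above and S2101 below both vehicle arrays in Tnnc2, Tnni1, Tnnt2 and Tnnt3, the fast troponin C, slow troponin I, cardiac troponin T and fast troponin T genes. The log2 difference of TC from S2101 was 0.21 for Tnnc2, 0.18 for Tnni1, 0.18 for Tnnt2 and 0.22 for Tnnt3. The difference between the compounds was not tested, since no dose is stated and each compound has 1 array. The same arrangement was found in 7.41% of all genes tested, and the opposite one, S2101 above and TC below, in 5.40%. These shares are not restricted to genes as bright as the troponins. At the 99th percentile of the genes tested, log2 values were 14.34 for TC, 14.31 for each vehicle array and 14.28 for S2101. At the 95th percentile S2101 (13.09) lay between the vehicle arrays (13.08 and 13.11), with TC at 13.12. The part of this in the troponin values was not tested. With quantile normalization TC lay above and S2101 below both vehicle arrays in 5 troponins, the same 4 and Tnni2. Their log2 differences of TC from S2101 were 0.13 to 0.19, and 7.34% of all genes tested had this arrangement. In each comparison with vehicle alone, the values of these genes did not pass in limma.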

How the results depend on the processing

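No paired analysis was possible because TC and S2101 have 1 array each, and the numbers in their descriptions name the compounds. The count of troponins past the test for both inhibitors was 0, and 1 (Tnnt1) with quantile normalization; over the arrays left out in turn it was 0 to 1. For TC it was 1, and 0 with dim genes kept in, with no variance trend and with every probe set as its own feature. The slow over fast troponin I ratio was 0.086 with probe sets averaged, because a dim Tnni2 probe set enters that average. Differences near 0 changed sign. With quantile normalization Tnnc2 stood at 0.016. Over the arrays left out in turn, Tnnc1 ran from -0.043 to 0.15, Tnnc2 from -0.13 to 0.087 and Tnni1 from -0.11 to 0.066. Tnni2 ran from -0.13 to 0.069, Tnnt2 from -0.057 to 0.12 and Tnnt3 from -0.064 to 0.16. Tnnt1 ran from 0.20 to 0.33, and as its groups did not overlap, its sign could not change. The call of Tpm4 ended under 7 of 12 alternatives, of Atp2a2 under 5 and of Actn3 under 4. Eya1 (0.40) and Atp2a2 (0.21) shrank and lost their calls with probe sets averaged; other causes were not tested. Genes called by limma in all numbered 729 for both inhibitors, 266 without the dim-gene filter, 423 without the trend, 457 with the stricter filter, 468 with averaged probe sets, 107 over single probe sets and 842 with quantile normalization. For TC 744 were called, 12 without the dim-gene filter, 83 without the trend, 0 over single probe sets and 927 with quantile normalization; for S2101 610, 8, 112, 0 and 804. The fits with 3 groups could not be made without a vehicle array, as 0 residual degrees of freedom were left.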
